A study of Mus musculus with 11 samples.

Results

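The 38 genes described here drive DNA replication and cell division. They were chosen by name, as 11 genes of S phase, when DNA is copied, and 27 mitotic genes, most of which are used when chromosomes are condensed and separated. They make up 38 of the 52550 genes in the count table, and all 38 were among the 15373 genes past a filter on low counts, which asked for 1 CPM or more in 3 libraries and a median of 10 counts or more. CPM is the count of a gene relative to the library size, after TMM scaling in edgeR. Poly(A) RNA was sequenced from the shell of the nucleus accumbens, which lies in the ventral striatum, in 11 libraries titled by animal code. The mice were 8 weeks old, on a CBA/C57BL6J/129svEmx mixed background. The series asks about weaker signalling by the retinoic acid receptor Rarβ alongside the R6/1 mutation that models Huntington disease, but the labels used here give these codes (m44 to m115) and no genotype, so no groups were compared. Which libraries carry R6/1 or a changed Rarb gene is thus not known here. Values are given by library or as the lowest, median and highest of the 11.

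Cells copy their DNA with the MCM helicase, its cofactor Cdc45 and the sliding clamp Pcna, using nucleotides made by ribonucleotide reductase and thymidylate synthase. They then enter mitosis under Cdk1 with A-type and B-type cyclins, build a spindle with kinesin motors, and leave mitosis when the anaphase-promoting complex destroys the cyclins. As background, genes of S phase are commonly controlled by E2F factors, and mitotic genes by NF-Y at CCAAT boxes and by the DREAM and MuvB complexes at an element called CHR. Neurons of the adult striatum do not divide, whereas progenitors in the subventricular zone, on the wall of the nearby lateral ventricle, and oligodendrocyte precursors do.

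The promoter windows of 4 members are shown because they carry these elements in different combinations. Each runs from 250 bases before the start site to 50 after it (RefSeq, GRCm38.p6), written 5′ to 3′ on the strand of the gene. Capitals mark a CCAAT box, the CHR word TTTGAA or an E2F word, each searched on both strands. The CCAAT box can thus appear as ATTGG. A CHR on the other strand appears as TTCAAA. The E2F words searched were TTTCCCGC, TTTGGCGC, TTTCGCGC and TTTGCCGC, which may overlap each other. Top2a (chr11:99024140-99024439, minus strand) varied most of these 4 genes, and Cdc20 (chr4:118437294-118437593, minus strand) is a mitotic gene of smaller spread. Mcm6 (chr1:128359656-128359955, minus strand) and Pcna (chr2:132253131-132253430, minus strand) are S phase genes.
Top2a: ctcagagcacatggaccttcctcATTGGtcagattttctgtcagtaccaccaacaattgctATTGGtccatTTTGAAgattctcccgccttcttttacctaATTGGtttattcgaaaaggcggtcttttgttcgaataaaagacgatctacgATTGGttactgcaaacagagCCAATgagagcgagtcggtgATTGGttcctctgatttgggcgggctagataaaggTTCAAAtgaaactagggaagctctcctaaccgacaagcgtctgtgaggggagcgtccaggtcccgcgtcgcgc
Cdc20: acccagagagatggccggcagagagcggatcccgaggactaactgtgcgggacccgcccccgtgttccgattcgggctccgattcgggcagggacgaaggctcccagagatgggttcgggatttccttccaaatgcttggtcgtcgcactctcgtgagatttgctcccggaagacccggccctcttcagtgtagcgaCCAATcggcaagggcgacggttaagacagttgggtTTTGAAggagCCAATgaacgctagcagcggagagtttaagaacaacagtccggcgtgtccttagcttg
Mcm6: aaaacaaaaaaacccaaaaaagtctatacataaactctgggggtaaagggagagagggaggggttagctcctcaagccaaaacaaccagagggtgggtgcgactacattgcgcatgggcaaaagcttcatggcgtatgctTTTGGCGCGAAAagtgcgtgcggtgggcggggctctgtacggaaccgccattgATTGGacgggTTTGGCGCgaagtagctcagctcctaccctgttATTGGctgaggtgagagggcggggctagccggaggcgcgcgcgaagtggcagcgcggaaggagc
Pcna: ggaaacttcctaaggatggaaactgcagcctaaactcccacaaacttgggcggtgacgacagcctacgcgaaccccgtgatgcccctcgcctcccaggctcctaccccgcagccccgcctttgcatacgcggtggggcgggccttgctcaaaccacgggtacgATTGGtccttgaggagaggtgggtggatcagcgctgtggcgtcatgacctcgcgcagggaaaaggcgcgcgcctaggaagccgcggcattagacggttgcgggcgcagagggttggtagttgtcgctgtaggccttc
Top2a holds 6 CCAAT boxes and 2 CHR words, Cdc20 holds 2 and 1, Mcm6 holds 2 CCAAT boxes with 3 E2F words, and Pcna holds a single CCAAT box.

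Of the 38 members 33 had a window in the RefSeq table. For the 3 of these with 2 windows only the first listed was read, whereas the shares of all windows count every window. A CHR word was found in 17 of 23 mitotic windows and 2 of 10 S phase windows, against 17.9% of all 32851 windows in the table. Within 50 bases of the start site on either side, it was found in 16 of the 23 mitotic windows, against 4.94% of all windows. An E2F word was found in 4 of 10 S phase windows (Mcm3, Mcm5, Mcm6 and Mcm7), in 1 of 23 mitotic windows (Cdk1) and in 2.26% of all. CCAAT was found in 9 S phase and 20 mitotic windows, against 37.4% of all. These matches describe the letters in the windows and say nothing of which factors were bound. Spread between libraries did not divide cleanly by the CHR word. Its median was 0.53 over the 19 members with it, from 0.24 for Aurka to 0.92 for Ect2, and 0.42 over the 14 without. Of the 19, 17 were mitotic, so these medians also compare mitotic with S phase members. The mitotic members without the word in the window read were Bub1 (0.83), Ccnb1 (0.75), Melk (0.72), Nusap1 (0.50), Birc5 (0.45) and Cenpe (0.45).

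**Figure D1:**
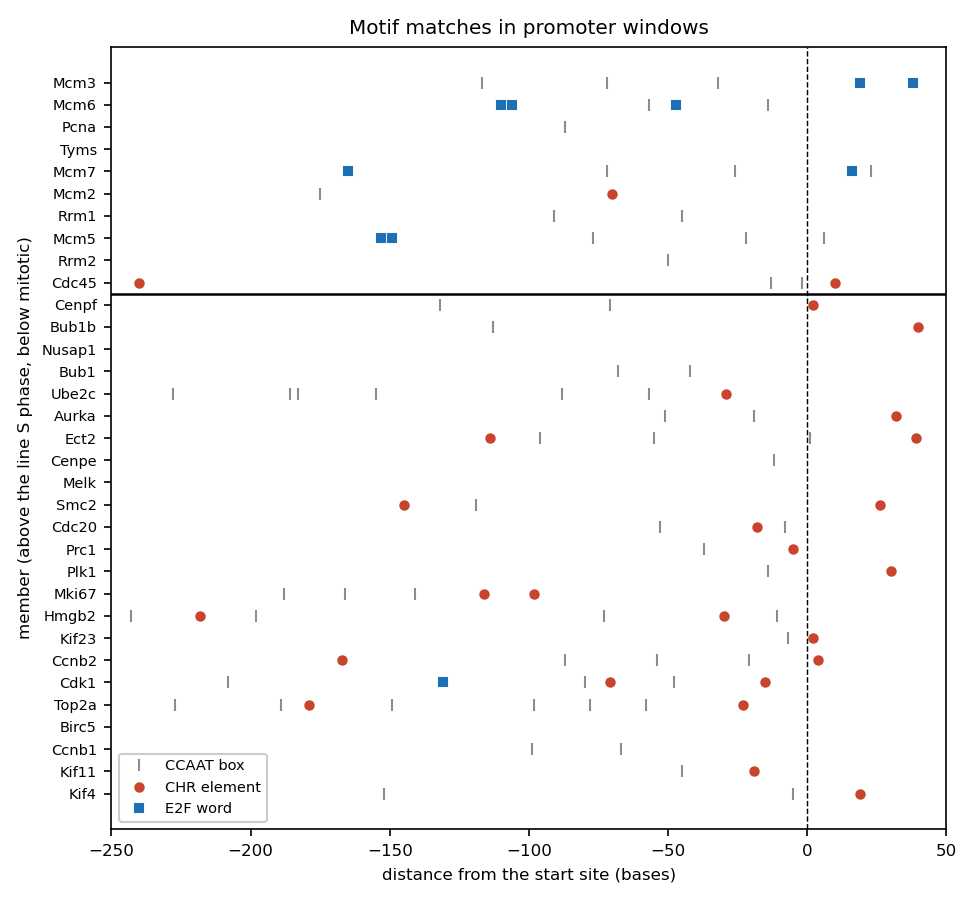
Motif matches in the promoter windows of 33 members, by distance in bases from the start site (dashed line) to the 5′ end of each match. CHR words of the mitotic genes lie mostly close to the start site, and E2F words lie mainly in Mcm genes.

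The libraries held 24840981 to 48825783 counts, so that 3 counts, used as the floor of detection, stood for 0.0619 to 0.133 CPM. Between 2.90% (m74) and 7.21% (m61, the library of fewest counts) of the counts were mitochondrial. Genes of striatal projection neurons were abundant in every library (Ppp1r1b, 438 to 1352 CPM), as was the cortical gene Slc17a7 (636 to 2118 CPM). In bulk tissue fewer dividing cells and less RNA per dividing cell cannot be told apart. Intervals given for ratios of counts cover counting error only, and reads copied by PCR are not independent molecules.

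Replication genes were the more abundant members for their length. Per kilobase of exon the median level was highest for Pcna (7.06 CPM per kilobase), Mcm7 (5.07), Mcm4 (3.49) and Mcm5 (2.20). Over the S phase members the median was 1.51 CPM per kilobase, and over the mitotic members 0.460. The lowest were Bub1 (0.111), Cenpf (0.135) and Ect2 (0.140). The reads of some members are uncertain, because the strand setting of the counting is not given in the sources used here. Exons of Kif20a overlap those of Cdc23 on the other strand over 29.3% of their length, Ube2c overlaps Tnnc2 over 22.8%, Kif4 overlaps Pdzd11 over 15.1%, Ccna2 overlaps Exosc9 over 12.5% and Prc1 overlaps Rccd1 over 11.1%. Pcna has a processed pseudogene, Pcna-ps2, that took 72 to 160 counts per library against 460 to 848 for Pcna.

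Nearly all members were seen in every library. At least 3 counts were found in all 11 libraries for 11 of 11 S phase members and 26 of 27 mitotic members. The same held for 52.7% of all genes with any count, and for 15149 of the 15373 genes past the filter. All members are past that filter, so detection in every library does not set them apart from such genes. The exception was Aurkb, the kinase of the chromosomal passenger complex, with 1 count in m57 and 12 to 99 counts elsewhere. At 10 counts, 22 mitotic members and all 11 S phase members were seen everywhere, against 47.6% of all genes with any count. Of the 15373 genes past the filter, 14680 were. Ube2c, which codes for the ubiquitin-conjugating enzyme of the anaphase-promoting complex, had 4 counts in m57. Bub1, a spindle checkpoint kinase, had 6 counts in m61 and in m73, 8 in m57 and 9 in m101. Melk, a kinase of dividing progenitors, had 5 counts in m73 and 9 in m61, and Ect2, which acts in cytokinesis, had 6 in m44 and 8 in m101. The members seen only in some libraries at 10 counts were thus all mitotic, and m57, m61, m73, m101 and m44 were the libraries that missed them. This floor is not adjusted for library size or gene level. The libraries m61 and m101 held the fewest counts, and median levels began at 0.482 CPM for mitotic members and 2.60 CPM for S phase members.

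Mitotic members had larger spreads between libraries than replication members. Spread is the biological coefficient of variation from edgeR, which leaves out counting noise. It had a median of 0.53 over the 27 mitotic members and 0.27 over the 11 S phase members, against 0.20 over all genes. A spread of at least 0.5 was reached by 16 mitotic members and by 1 S phase member, Rrm2, against 6.8% of all genes. Low genes spread more: at the median levels of the mitotic members (0.482 to 10.4 CPM) the share of all genes was 17.2%, and at those of the S phase members (2.60 to 22.4 CPM) it was 4.92%. The filter favours large spread among low genes, because a gene of median under 1 CPM passes only where at least 3 libraries reach 1 CPM. Bub1 (median 0.482 CPM) passed through m115 (1.22 CPM), m47 (1.78) and m89 (2.46) alone. The highest library lay at least 4-fold above the lowest for 22 mitotic members and for Rrm2, against 12.9% of all genes. With a median count of at least 100 only 9 members of each kind were left, and 4 mitotic members reached the spread and 7 the 4-fold range, against 2.3% and 5.11% of all genes under that filter. On library totals without scaling, 2 S phase members reached the 4-fold range, against 13.9% of all genes.

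**Figure D2:**
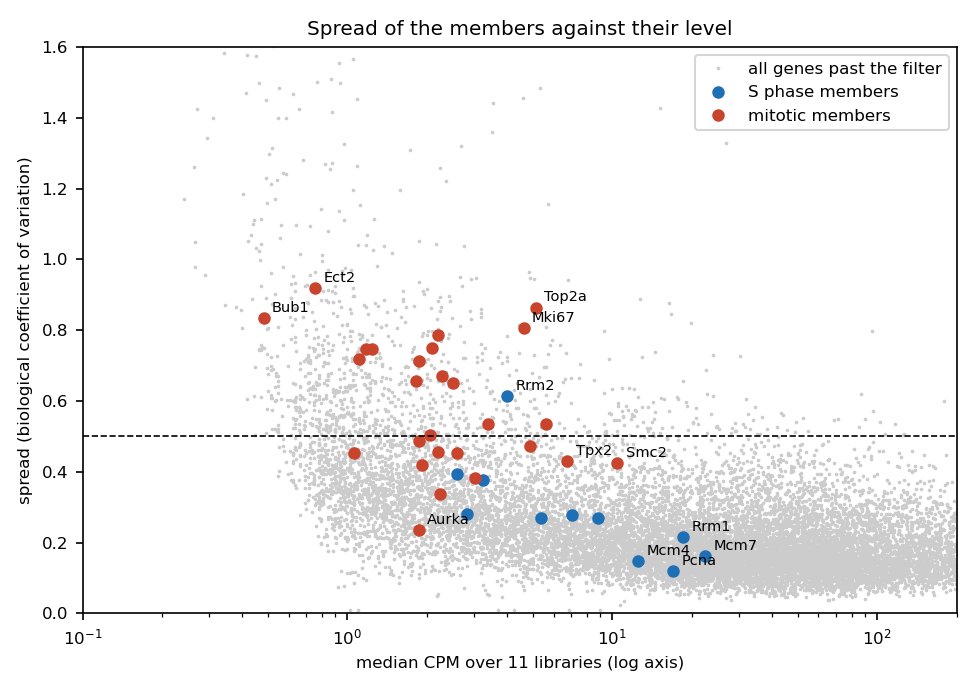
Spread between the 11 libraries against median CPM (log axis), with S phase members in blue, mitotic members in red and all genes past the filter in grey (genes beyond the axes are not drawn). The dashed line marks 0.5, which 16 mitotic members and Rrm2 reach.

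Among the proteins of chromosome structure, Top2a and Mki67 set the pattern. Top2a (ENSMUSG00000020914, chromosome 11, 98992943 to 99024189, mm10) codes for the topoisomerase that untangles replicated chromosomes. It stood at 18.3 CPM in m47, 16.5 in m115, 16.2 in m89 and 10.2 in m49. It stood at 6.17 CPM in m83, 5.15 in m44, 4.87 in m74, 4.30 in m61, 3.24 in m101, 2.03 in m73 and 0.520 in m57. The high values were therefore in m47, m115, m89 and m49, and m57 lay under every other library, at 18 counts. The ratio of m47 to m57 was 35.2 (95% interval 22.1 to 59.9). Mki67, the proliferation antigen Ki-67 that coats mitotic chromosomes, ran from 1.01 CPM in m57 through a median of 4.63 to 21.03 in m47, a ratio of 20.8 (14.8 to 30.1). Its 4 highest libraries were those of Top2a. Hmgb2, a DNA-bending protein of dividing cells, ran from 2.02 CPM in m57 to 13.2 in m47 with a median of 5.62, and again had the same 4 libraries highest.

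**Figure D3:**
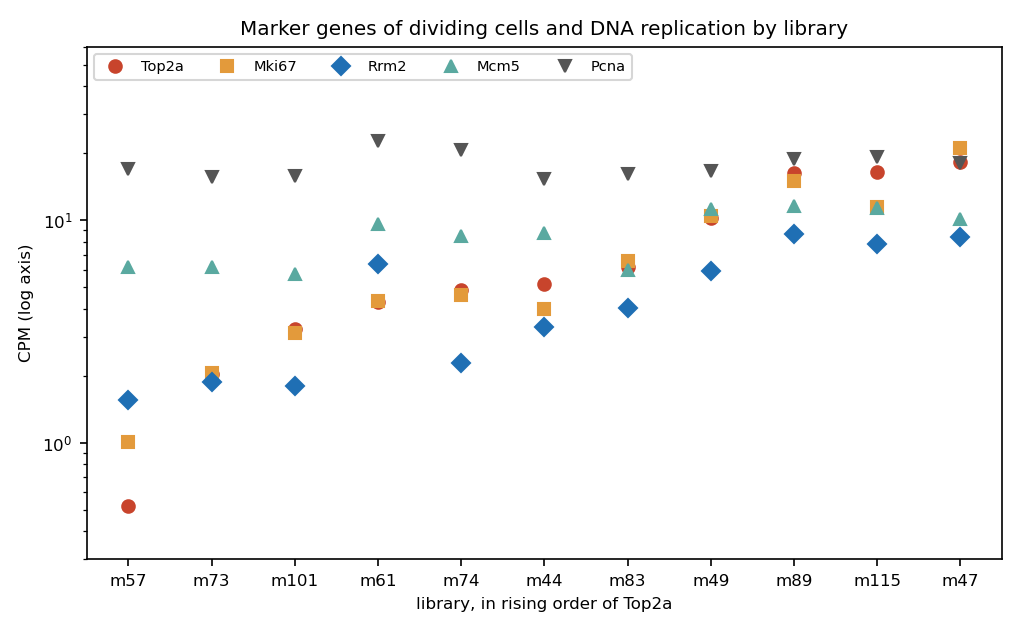
CPM (log axis) of 2 mitotic and 3 S phase members in each library, in rising order of Top2a. Top2a and Mki67 climb together from m57 to m47, Rrm2 follows less steeply, Mcm5 spans about 2-fold, and Pcna stays between 15.4 and 22.8 CPM.

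The cyclins and their kinase were at low levels with wide ranges. Cdk1, the kinase that starts mitosis, ran from 0.433 CPM in m57 to 4.26 in m89, with a median of 2.27. Ccnb1, a B-type cyclin, ran from 0.414 CPM in m101 to 4.22 in m47 with a median of 1.18, and Ccnb2 from 0.517 in m101 to 2.60 in m89 with a median of 1.06. Ccna2, the A-type cyclin of S phase and early mitosis, was the most abundant of these, from 2.20 CPM in m57 to 12.5 in m89, and 11.5 in m47. For Cdk1, m57, m73 and m101 were the lowest libraries, m74 followed at 1.03 CPM, and the other 7 lay above 2 CPM.

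The mitotic kinases did not vary alike. Aurkb reached 2.04 CPM in m49 and its 1 count in m57 stood for 0.0289 CPM, a ratio of 70.7 with an interval of 12.4 to 2820. Without m57 its spread was 0.435 instead of 0.75. Bub1 ran from 0.142 CPM in m73 through a median of 0.482 to 2.46 in m89. Bub1b, its partner in the spindle checkpoint, ran from 0.591 CPM in m73 through 2.50 to 7.09 in m47. Aurka, the kinase of spindle poles, had the smallest spread of the mitotic members, 0.24, from 1.07 CPM in m57 to 2.59 in m101. Its values thus did not separate the libraries that were high for Top2a. Plk1, a kinase active throughout mitosis, ran from 1.11 CPM in m73 to 4.76 in m44, and Melk from 0.118 in m73 to 2.44 in m83, so both peaked in libraries that were intermediate for Top2a.

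Kinetochore and spindle genes mostly repeated the order of Top2a. Cenpf, a large kinetochore protein, lay between 6.28 and 6.83 CPM in m89, m47 and m115 and at 0.520 CPM in m57, a ratio of 13.1 (8.16 to 22.5) to its highest library. Cenpe, the kinetochore motor, had a narrower range, 1.51 CPM in m61 to 5.66 in m47. The spindle motor Kif11 ran from 1.47 CPM in m57 to 7.31 in m47, and Kif20a, a motor of cytokinesis, from 0.483 in m101 to 3.54 in m115. Prc1, which bundles the central spindle, was high in m61 too (4.57 CPM, against 0.689 in m101 and 6.28 in m47). Nusap1 and Tpx2, which bind spindle microtubules, ran from 0.664 to 4.31 CPM and from 2.48 to 12.3 CPM, both lowest in m57 and highest in m47. The motors Kif4 (0.866 to 4.47 CPM) and Kif23 (0.898 to 3.35 CPM) had spreads of 0.49 and 0.42. In Kif23 m57 was not low, at 2.28 CPM against a median of 1.91.

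Genes of the passenger complex and of the exit from mitosis shared the low value in m57. Birc5, which codes for survivin, stood at 0.462 CPM in m57 and between 1.30 and 3.32 CPM elsewhere, and its spread of 0.45 became 0.281 without m57. Ube2c stood at 0.116 CPM in m57, 0.452 in m44 and at most 3.28 in m61, a ratio of 28.4 (10.6 to 107) between m61 and m57. Cdc20, the activator of the anaphase-promoting complex, varied less, from 1.28 CPM in m73 to 3.63 in m49. Over all 27 mitotic members m57 was the lowest library for 14 and among the 3 lowest for 23, while m47 was the highest for 12.

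**Figure D4:**
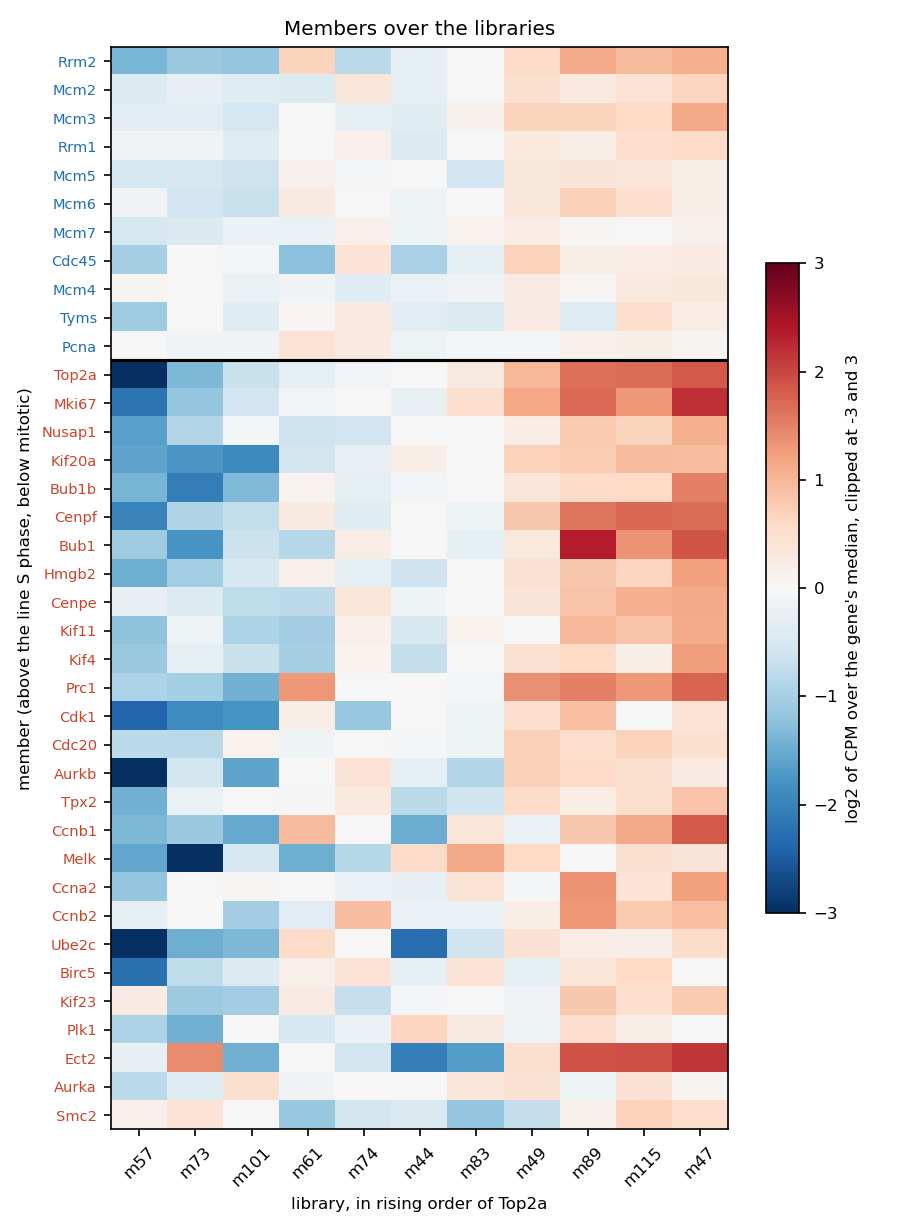
Log2 of each member's CPM over its median, for S phase members (above the line) and mitotic members (below), with libraries in rising order of Top2a. Red fills the right-hand columns m49, m89, m115 and m47 and blue the left-hand columns m57, m73 and m101 for most mitotic members, while most S phase rows are pale.

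Among the S phase members Rrm2 stood apart. Rrm2, the subunit of ribonucleotide reductase made in S phase, ran from 1.56 CPM in m57 to 8.68 in m89 with a median of 4.02, a ratio of 5.57 (4.16 to 7.58). It was also high in m61 (6.34 CPM), and m57, m101 and m73 lay under 2 CPM. Rrm1, the other subunit of the enzyme, ran only from 13.99 CPM in m44 to 27.5 in m47, with a spread of 0.22. Tyms, the thymidylate synthase gene, ran from 1.36 CPM in m57 to 4.06 in m115, with a median of 2.84.

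The 6 subunits of the MCM helicase spanned a smaller range. Mcm3 varied most, from 2.24 CPM in m101 to 7.06 in m47 (spread 0.38), and Mcm4 least, from 9.82 in m74 to 15.8 in m47 (spread 0.15). Mcm7 ran from 15.7 to 26.2 CPM, Mcm6 from 4.45 to 11.6, Mcm5 from 5.76 to 11.6 and Mcm2 from 4.01 to 8.35. Subunits of 1 ring thus differed in range from 1.61-fold for Mcm4 to 3.15-fold for Mcm3. Cdc45, the helicase cofactor, ran from 1.11 CPM in m61 to 4.17 in m49. Pcna, which also serves DNA repair, had the smallest spread of all 38 members, 0.12, from 15.4 CPM in m44 to 22.8 in m61. Its highest libraries, m61 and m74 (20.8 CPM), were not those of Top2a.

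Summed over members, the S phase genes ran from 83.9 CPM in m101 to 134 in m47, and the mitotic genes from 37.95 CPM in m57 to 171 in m47. The mitotic sum was 1.27 times the S phase sum in m47, 1.16 in m89 and 1.05 in m115, and 0.438 times in m57. It lay between 0.621 and 0.805 times in the other 7 libraries. For the S phase genes m101 was among the 3 lowest libraries for 8 of 11 members and m57 for 7.

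Members that varied together were counted by their rank correlation with Top2a over the 11 libraries, given as a description. Spearman's rho was at least 0.8 for 10 of the other 26 mitotic members and for 3 of 11 S phase members (Rrm2, Mcm2 and Mcm3), against 0.683% of all genes. It was highest for Mki67 and Nusap1 (0.96 each), Kif20a (0.95), Bub1b (0.94), Cenpf (0.93) and Bub1 (0.92). The median was 0.74 over the mitotic members and 0.73 over the S phase members, against -0.02 over all genes. The median rho was thus close in both kinds of gene, although their ranges differed. The count of S phase members was 1 without m47, 5 without m74 and 5 with Mki67 as the reference. The shares of all genes were then 0.504%, 0.856% and 0.598%. The count of mitotic members was 4 when a median count of at least 100 was asked for, against 0.376% of all genes then. The libraries share tissue, dissection and counting, which rho does not separate.

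Of 15352 genes ranked by rho with Top2a, 37 were members, among them 7 of the first 20 and 13 of the first 100. These 13 are the members already counted at a rho of at least 0.8. Among the genes that are no members, Uhrf1, which keeps DNA methylation through replication, had exactly the order of Top2a (rho 1.00, Pearson r 0.96 on the log scale), from 1.07 CPM in m57 to 6.91 in m47. The next were Ckap2l, a spindle protein (rho 0.92), Cdk2, the kinase of S phase entry (0.92), the kinesin gene Kif14 (0.92), and Cdca3, E2f7, Kif18b, Frmpd2, Gm38575 and Kif15 (0.91 each). E2f7 codes for a repressor of the E2F family and reached 1.75 CPM in m47. Of the 10, 7 stood in the further cell cycle lists, and E2f7, Frmpd2 and Gm38575 did not.

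Smc2, Aurka and Ect2 had the lowest rho with Top2a of the mitotic members (0.18, 0.45 and 0.51), and Smc2 and Ect2 are described further. Smc2, a condensin subunit, stood at 16.8 CPM in m115, 15.1 in m47 and 13.8 in m73, and at 11.6 in m57, where Top2a was lowest. It was lowest in m83 (4.70 CPM) and m61 (4.79 CPM). Ect2 stood at 3.31 CPM in m47, 2.89 in m115, 2.82 in m89 and 2.01 in m73, and under 1.1 CPM in the other 7 libraries, down to 0.181 in m44. Both ranked the libraries more like the neuroblast gene Dcx, with a rho of 0.86 for Smc2 and 0.88 for Ect2. Dcx was the only gene of the neuroblast list ranked against them. In m73 Smc2, Ect2 and Dcx lay above their medians, and no other gene of that list did. A measure of long against short transcripts, the median log2 deviation of the longest minus the shortest 10% of genes, had a rho of 0.89 with Smc2 and 0.55 with Ect2, and ran from -0.64 in m61 to 0.43 in m57. The part of transcript length in these values was not tested.

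Other cell cycle genes, listed by name, also had larger spreads for mitosis than for S phase, but their rho with Top2a differed more between the kinds than among the members. The share of all genes at a spread of 0.5 was 6.8%. Of 43 further S phase genes 40 passed the filter, with a median spread of 0.23, and 4 reached 0.5: Tk1 (thymidine kinase, 0.98), Clspn (claspin, 0.68), Chaf1b (a histone chaperone subunit, 0.62) and Uhrf1 (0.58). Tk1 had 1 count in m101 and reached 2.47 CPM in m47. The abundant ones varied little, among them Dut, which removes dUTP (23.3 to 38.1 CPM), Slbp, which binds histone mRNA (19.4 to 30.5 CPM), and Orc6 of the origin recognition complex (19.4 to 27.0 CPM). Their median rho with Top2a was 0.32. Of 57 further mitotic genes 54 passed, with a median spread of 0.50 and a median rho of 0.69, and 25 reached a spread of 0.5. Kif20b (0.97) and Kif18b (0.97) had the largest spreads, and Incenp (0.11), the scaffold of the passenger complex, the smallest. Cit, the citron kinase gene, was the most abundant (45.8 to 134 CPM, spread 0.26), ahead of Ncapd2 (14.2 to 39.1 CPM), Racgap1 (17.1 to 29.4 CPM) and Hjurp (9.18 to 31.9 CPM).

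Genes that set entry into the cycle or hold cells out of it had a median level of 5.24 CPM per kilobase. All 21 passed the filter, with a median spread of 0.25 and a median rho of 0.24 with Top2a, and 1 reached a spread of 0.5, Rbl1, a pocket protein (0.51), against 6.8% of all genes. Ccnd2, a D-type cyclin, ran from 50.3 CPM in m44 to 153 in m47, and Ccnd1 from 35.7 in m115 to 72.2 in m61. The inhibitor genes Cdkn1b (27.4 to 66.8 CPM) and Cdkn2d (38.6 to 84.0 CPM) were highest in m47 and m61, respectively. Cdk4, the partner of the D-type cyclins, ran from 41.3 to 71.4 CPM.

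Markers of cells that could hold the dividing-cell signal are given beside it. Egfr, a growth factor receptor of amplifying progenitors, ran from 6.69 to 15.3 CPM with a rho of 0.34 with Top2a. All 10 progenitor genes were detected in every library, with a summed level from 283 CPM in m73 to 449 in m61, of which Mfge8 alone gave 143 and 261 CPM (rho -0.05). Of the neuroblast genes Dlx1 (20.9 to 85.6 CPM, rho 0.89) and Dlx2 (7.88 to 32.5 CPM, rho 0.80) followed Top2a most closely, and both were lowest in m57 and highest in m47. Dcx was high in m47 (92.8 CPM), m115 (80.4), m89 (75.2) and m73 (58.0), and between 27.7 and 34.3 CPM in the other 7 libraries. The library m73 thus joined a high Dcx level to a low Top2a level, and m49 the reverse (Dcx 32.8 CPM, Top2a 10.2 CPM). This held for Dcx and not for the neuroblast list. Among the other neuroblast genes none lay above its median in m73, and all but Dlx6os1 did in m49. Dlx1 stood at 33.8 CPM in m73 and 74.9 in m49 (median 51.0), and Igfbpl1 at 8.84 and 18.6 (median 13.7). All 11 neuroblast genes were detected everywhere, with a summed level from 637 CPM in m57 to 1296 in m61, where Stmn1 alone gave 775 CPM (rho -0.34). The part of these cells in the result was not tested.

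**Figure D5:**
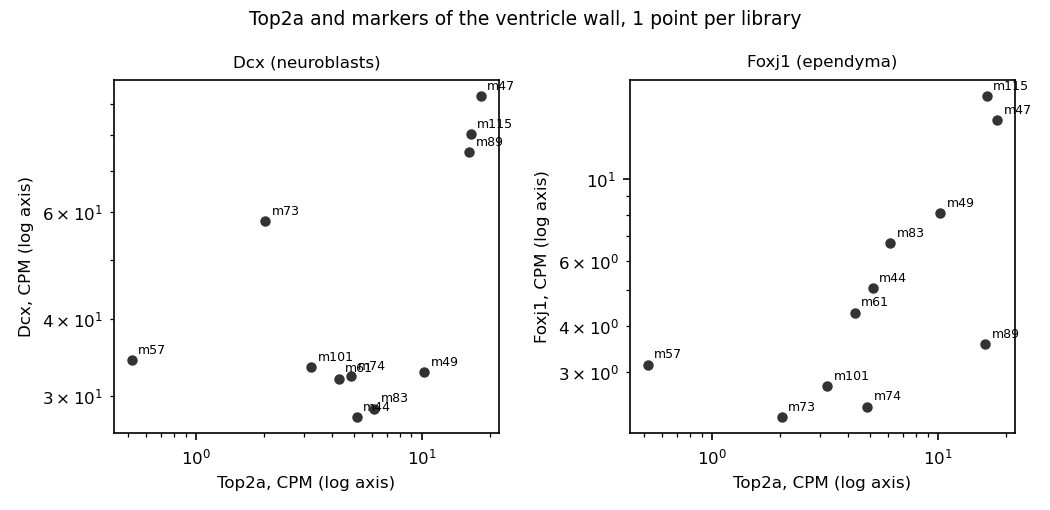
CPM of Dcx and Foxj1 against CPM of Top2a (log axes), 1 point per library. Libraries m47 and m115 are at the upper right for both genes, while m89 is high for Dcx and under the median for Foxj1 (4.34 CPM).

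Most genes of the ependyma, the ciliated lining of the ventricle, were high in m115 and m47 and below their medians in m89. Foxj1, which switches on motile cilia, was highest in m115 (16.7 CPM), m47 (14.4) and m49 (8.08), and was at 3.57 in m89, where Top2a was 16.2 CPM. The cilia gene Ccdc153 was at 7.58 CPM in m115 and 4.84 in m47, and at 0.0553 in m89. Of 9 ependyma genes 5 were detected in every library, and Mia and Tmem212 had no count in 5 and 4 libraries. Their summed level ran from 23.4 CPM in m73 to 75.3 in m115, with a median of 38.4. In m89 it was 33.4 CPM, and m73, m74, m101 and m57 lay lower. Sox9 was above its median in m89 (24.1 against 21.2 CPM). Over all 11 libraries Foxj1 had a Pearson r of 0.70 and a rho of 0.80 with Top2a (permutation p = 0.0151 and 0.00467, adjusted p = 0.226 and 0.140, two-sided; r = 0.70 without m47 and m57). With Rrm2 the r was 0.73 and the rho 0.66 (permutation p = 0.0119 and 0.0310, adjusted p = 0.226 and 0.465; r = 0.89 without m57 and m89). Neither passed the adjusted threshold of 0.05. Without m89 both passed by r (0.84 and 0.89, permutation adjusted p = 0.0305 and 0.0249) and neither by rho (adjusted p = 0.0660 and 0.103). No relation passed by r when any other single library was left out.

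These were 2 of 30 relations, of Top2a, Rrm2 and Pcna with 7 marker genes and 3 library measures. By permutation none of the 30 passed after Benjamini-Hochberg adjustment by r or rho, and 2 had an unadjusted p under 0.05 by each measure. For Top2a and Dcx the r was 0.56 and the rho 0.35 (permutation p = 0.0756 and 0.289, adjusted p = 0.665 and 0.968; r = 0.48 without m47 and m57). For Top2a and Pdgfra, a gene of oligodendrocyte precursors, r was -0.15 and rho 0.30 (permutation p = 0.649 and 0.371, adjusted p = 0.955 and 0.968; r = 0.48 without m47 and m57). Pdgfra ran from 26.2 CPM in m101 to 56.2 in m57, so the library with least Top2a had most Pdgfra. The 8 precursor genes were detected everywhere, with a summed level from 201.3 CPM in m101 to 324 in m57, a median spread of 0.21 and none at 0.5.

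The median rho with Top2a was 0.60 over the 10 progenitor genes, 0.57 over the 11 neuroblast genes and 0.63 over the 7 ependyma genes past the filter. For the other lists it was -0.15 over the precursor genes, -0.27 over 8 microglia genes (summed level 335 to 545 CPM), -0.22 over 7 vascular genes (224 to 275 CPM), -0.07 over 8 projection neuron genes (1522 to 4215 CPM) and -0.10 over 6 cortical genes (810 to 2402 CPM). The genes of these 5 lists were all detected in every library. It was -0.47 over 5 red blood cell genes (21.5 to 72.9 CPM). Of 5 choroid plexus genes Kl and Clic6 passed the filter (rho 0.52 and 0.20), and Ttr and Kcnj13, which define that tissue, had no count in 9 libraries each. Among the library measures, Top2a had an r of 0.06 with total counts, -0.02 with the mitochondrial share and 0.10 with the measure of long against short transcripts (permutation p = 0.853, 0.951 and 0.767; adjusted p = 0.955 for each). The rho of these was 0.07, -0.07 and 0.13 (permutation p = 0.839, 0.837 and 0.714; adjusted p = 0.968 for each), and r without m47 and m57 was 0.24, -0.36 and 0.42.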

How the data were processed

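Poly(A) RNA of 11 libraries was analysed. Per the labels' protocols, punches came from 300 µm frozen sections, and a stranded TruSeq kit with 12 PCR cycles turned 200 ng of RNA into each library. Of 12 samples in the series design, 1 failed quality control. The authors deposited raw counts per gene, without normalization. The submitters' processing notes name HTSeq 0.6.1, TopHat2 2.0.14, Bowtie2 2.1.0 and bcl2fastq 2.17.1.14, with the build mm10. Strand setting and annotation release: not given in the sources used here. GENCODE M21 gave names, coordinates and exon lengths to 52403 of the 52550 gene identifiers.

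CPM and spread came from edgeR 4.0.16 (R 4.3.3), the spread from an intercept-only fit in which each gene stands alone. Genotype, animal and dissection all enter it. The libraries carry no group, so p-values concern relations over libraries only. Those relations used log2(CPM + 0.5) and 100000 permutations in Python 3.11.15 (numpy 2.4.6, scipy 1.17.1). No sequencing batch is labelled, so no relation was computed within batches. Alternatives were DESeq2 1.42.0 size factors, unscaled totals, other filters, floors and pseudocounts, thinning to 24840981 counts, and leaving out each library. In simulated libraries of 15373 genes, a spread of 0.8 was set for 200 genes, of which 96.5% reached 0.5. Another 200 genes were made to follow Top2a, and 100% of them reached a rho of 0.8, against 0.207% of the genes without either change. These 200 were drawn from all genes past the filter and given the full range of Top2a. The share at the levels and smaller ranges of the other members was not simulated. Named genes are the 38 members, the 10 genes most like Top2a, the relation markers, and the most abundant and the most and least variable genes of each further list. Of the listed markers, 1 gene is not reported here. Further examples were chosen after their values were seen. The members and lists were chosen with earlier results of these data known.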

Additional observations from a re-analysis of the deposited data

How the results depend on the processing

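Of 146 alternative values of 9 counts in the report, 138 stayed within 1.5 times the reported count. A median count of at least 100 left 4 mitotic members at a spread of 0.5, 7 at a 4-fold range and 4 that followed Top2a, with 9 of 27 mitotic members left to count. Library totals without scaling gave 2 S phase members of 4-fold range, against 13.9% of all genes. With Mki67 as the reference, chosen after seeing the data, 5 S phase members followed, against 0.598% of all genes. Leaving out each library gave 1 to 5 S phase members and 8 to 14 mitotic members that followed Top2a, 12 to 17 mitotic members at a spread of 0.5 and 18 to 22 at a 4-fold range, 26 to 27 mitotic members detected everywhere, and 0 to 2 relations that passed by r. Leaving out both m47 and m57 was also chosen afterwards. The mitotic counts were then 11 at a spread of 0.5, 15 at a 4-fold range and 7 that followed Top2a. The shares of all genes were 6.34%, 10.7% and 1.03%. With each single library left out, these shares were 5.45% to 6.94%, 9.02% to 12.3% and 0.504% to 1.01%. Spreads of single members stayed within 1.5 times in 580 of 584 cases, and those of Aurkb and Birc5 did not without m57, nor without both m47 and m57. Thinning every library to the smallest total left 25 mitotic members detected everywhere. No paired analysis was possible because the labels give no groups.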
